A study of Mus musculus with 8 samples.

Results

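The synaptonemal complex and HORMA genes are 9 genes whose products build or mark paired chromosomes in meiosis: Sycp1, Sycp2, Sycp3, Syce1, Syce2, Syce3, Tex12, Hormad1 and Hormad2. They were chosen by symbol from the array annotation, in which each of the 9 had 1 probe set, out of 18193 genes with a probe set of their own. All 9 probe sets passed the filter on low values. The samples were whole testes of mice aged 27 days, 4 mutants labelled Brwd1-/- and 4 controls, with 1 Affymetrix array a mouse. The controls are titled wild type, but the genotype given for them is Brwd1+/-, so they may carry 1 mutant copy. They are called wild type here. The labels name neither the mutation nor the strain, and no treatment was given. The age was picked, per the design text, so that changes in spermatids, the haploid cells after meiosis, could be seen.

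The synaptonemal complex is a protein zipper that holds homologous chromosomes together along their length during meiotic prophase, while crossovers form. SYCP2 and SYCP3 coat the chromosome axes as lateral elements, SYCP1 spans the gap as the transverse filament, and SYCE1, SYCE2, SYCE3 and TEX12 make up the central element in the middle. HORMAD1 and HORMAD2 bind axes that are not yet paired and are removed by the ATPase TRIP13 when the zipper closes. In the mouse testis these genes are used mainly by spermatocytes, the cells before the spermatid stage.

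Of the 9 transcripts, Syce2 alone was lower in mutants without overlap between genotypes, as were 3.83% of all kept probe sets. Syce2 was called lower with either block but not without one, and the other 8 were not called in any of 3 fits. Values are scaled intensities in arbitrary units, and a difference is mutant minus wild type on the log2(value + 16) scale. A transcript was called at an adjusted p under 0.05 in limma, over all 27022 kept probe sets. Same-numbered mice of the 2 genotypes deviated together, but 3 of the 4 mutants were closest to a wild-type mouse of another number (processing section), so the number is a weak guide to pairs. Results are given without a block and with the replicate number as a block. A further fit, called the 2-block fit, took replicates 1 and 2 as 1 block and replicates 3 and 4 as the other, since these sets stood apart in both genotypes. The labels do not say how mice were matched or arrays run. P-values without a block measure against the spread between these 8 mice within genotype. Those of the blocked fits measure against the spread left once block means are taken out.

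Several measures other than the 9 transcripts moved with the split of replicates 1 and 2 from replicates 3 and 4. All 24 probe sets of the poly-A control transcripts, added to the RNA before labelling, were lower in replicates 3 and 4, with log2 differences of -6.86 to -2.06. The ratio of the 3' to the 5' actin control, a sign of RNA or labelling quality, was 1.82 to 2.30 in replicates 3 and 4 and 1.41 to 1.69 in replicates 1 and 2; it was 1.56 to 2.17 in mutants and 1.41 to 2.30 in wild type. Of 10 listed epididymis markers 6 had a probe set of their own, and all 6 passed the filter. All 6 were called higher in replicates 3 and 4, as were 23.3% of all kept probe sets. Their summed level was 35819 to 44600 in replicates 3 and 4 and 136 to 423 in replicates 1 and 2. The filter used the mean over the 8 arrays, to which replicates 3 and 4 gave most, so these calls lend the split no support. The part of these measures in the differences of the 9 transcripts between replicate numbers was not tested. Median intensities of the arrays lay between 90.7 and 124.1. Of 5 Brwd1 probe sets 4 were kept and none was called in any fit (log2 differences -0.28 to 0.31; limma, none with an unadjusted p under 0.05), and the labels do not say which part of the gene is altered. With 8 arrays, their number bounds the precision.

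Syce2, a central element gene, read 3987, 4871, 4709 and 4714 in mutant replicates 1 to 4, against 5990, 6697, 6985 and 5854 in wild-type replicates 1 to 4. Every mutant value lay below every wild-type value, so the mutant was lower in any pairing of the mice. The means were 4570 ± 396 in mutants and 6381 ± 546 in wild type (SD, n = 4 each), a ratio of 0.716. The log2 difference of -0.48 had a 95% confidence interval of -0.74 to -0.23 without a block and was not called there (limma, adjusted p = 0.152). It was called lower with the replicate block (adjusted p = 0.0270, interval -0.67 to -0.29) and with the 2-block fit (adjusted p = 0.0378, interval -0.69 to -0.28). The call was 0 of 9 members without a block, where limma called 0.115% of all probe sets and 1 member had an unadjusted p under 0.05. It was 1 of 9 lower with the replicate block, where 2.18% of all probe sets were called lower, and 1 of 9 lower in the 2-block fit, against 1.48%. Of all kept probe sets 3.83% had every mutant value below every wild-type value, as 1 of the 9 did, and 2.26% had every mutant value above, as none of the 9 did (6.1% in either direction).

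The Syce2 difference kept its direction in both sets of replicates, at -0.52 within replicates 1 and 2 and -0.44 within replicates 3 and 4. Leaving out mutant replicate 1, the mouse with the lowest Syce2 value, gave -0.41 in the 2-block fit, again called (adjusted p = 0.0385). That setting was chosen after seeing the data, and 701 of all kept probe sets were called in it, against 485 with all mice. With the replicate block the Syce2 call was lost when replicate number 1, 2 or 3 was left out (adjusted p = 0.103, 0.123 and 0.133) and was kept without number 4 (adjusted p = 0.0269). Over all kept probe sets, 540, 4 and 14 were called without number 1, 2 and 3, and 967 without number 4. Within an array, the log2 ratio of Syce2 to Syce1, another central element gene, ran from -1.23 to -0.89 in mutants and from -0.72 to -0.59 in wild type, so the 2 transcripts differed unequally. The ratio of Syce2 to Sycp3, Syce3, Tex12 or Hormad2 was lower in the mutant in 4 of 4 same-numbered pairs, but these ratios overlapped between genotypes over all 8 mice. The ratios to Sycp2, Sycp1 and Hormad1 were lower in 3, 2 and 2 pairs.

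**Figure D1:**
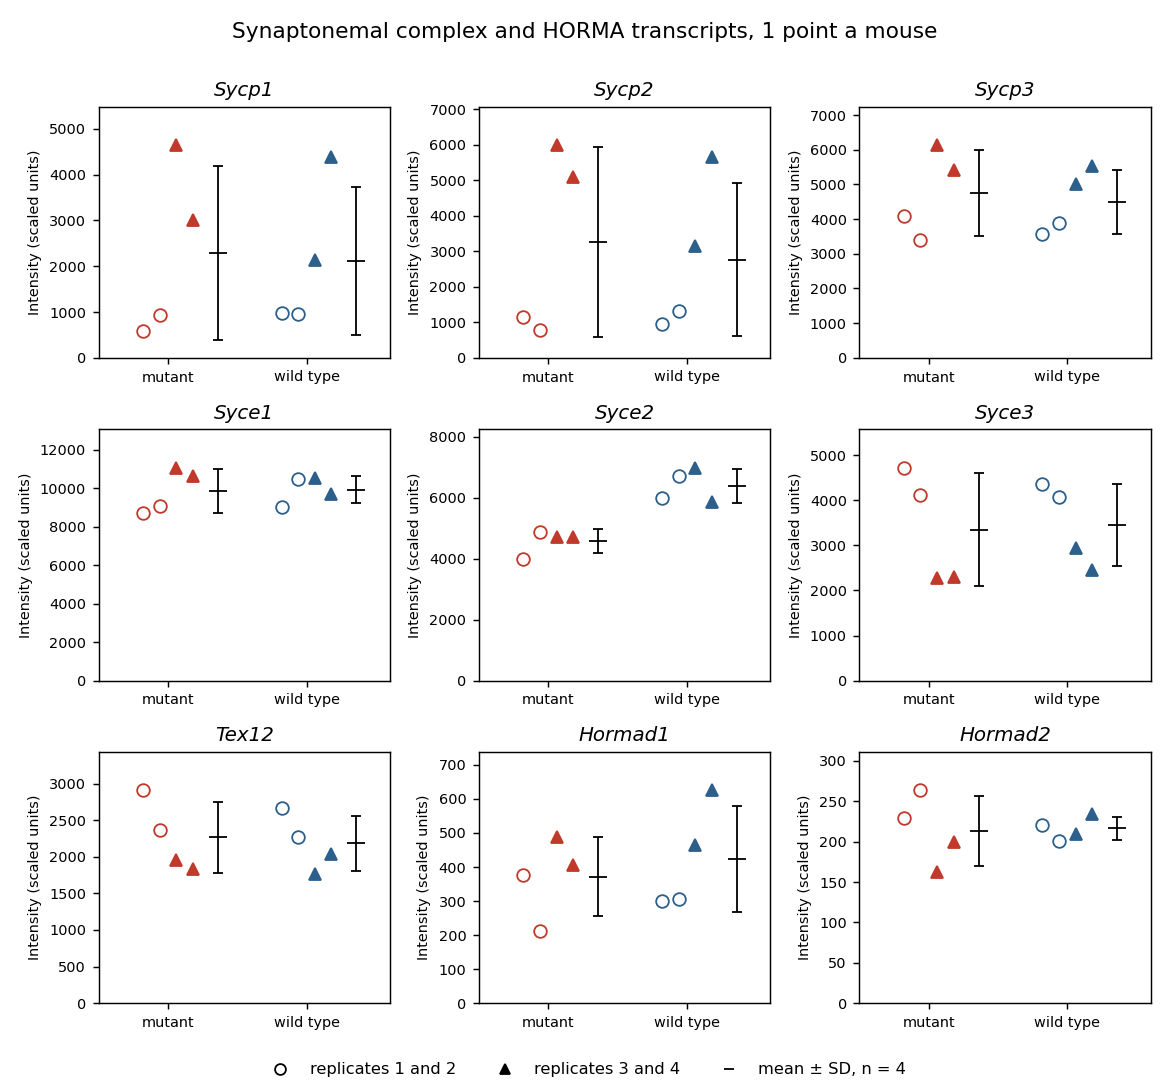
Intensity of each transcript (vertical axis, scaled units from 0) in mutants (left, red) and wild type (right, blue), 1 point a mouse, with open circles for replicates 1 and 2, triangles for replicates 3 and 4, and the mean ± SD of 4 mice as a bar. Syce2 values of mutants, 3987 to 4871, sit below those of wild type, 5854 to 6985, while Sycp1 and Sycp2 separate by replicate number in both genotypes.

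The other central element genes overlapped between genotypes and were not called. Syce1 averaged 9855 ± 1160 in mutants and 9924 ± 711 in wild type, a log2 difference of -0.01 with an interval of -0.19 to 0.16 in the 2-block fit. It was the steadiest of the 9, its highest array being 1.27 times its lowest. Tex12, whose protein assembles with SYCE2 into fibres, averaged 2265 ± 485 in mutants and 2182 ± 381 in wild type, a log2 difference of 0.05 (interval -0.19 to 0.28). Tex12 was lower in the mutant in 1 of 4 same-numbered pairs. Syce3, a small central element protein needed to start synapsis, averaged 3351 ± 1262 in mutants and 3461 ± 913 in wild type, a log2 difference of -0.09 (interval -0.31 to 0.14). Without a block the Syce3 interval was -0.74 to 0.57, which held the -0.48 of Syce2.

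The lateral element genes Sycp2 and Sycp3 and the filament gene Sycp1 overlapped between genotypes. Sycp3 read 4100, 3402, 6135 and 5407 in mutant replicates 1 to 4, against 3572, 3889, 5021 and 5525 in wild-type replicates 1 to 4. Within each genotype, replicates 3 and 4 read higher than replicates 1 and 2. Its log2 difference of 0.07 had an interval of -0.14 to 0.27 in the 2-block fit. Sycp2 read 1155, 790, 5992 and 5099 in mutants, against 946, 1312, 3148 and 5650 in wild type. Sycp1 read 589, 942, 4645 and 2999 in mutants, against 979, 964, 2137 and 4393 in wild type. In both genotypes, both genes were higher in replicates 3 and 4 than in replicates 1 and 2. The intervals of their genotype differences were wide: -1.64 to 1.55 around -0.05 for Sycp1 and -1.64 to 1.81 around 0.09 for Sycp2 without a block. In the 2-block fit they narrowed to -0.62 to 0.53 and -0.40 to 0.57, and that of Sycp1 still held the -0.48 of Syce2.

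The HORMA domain genes were dimmer on the array and were not called. Hormad1 read 377, 213, 489 and 406 in mutants, against 300, 305, 466 and 625 in wild type. The genotypes overlapped, and the log2 difference of -0.18 had an interval of -0.59 to 0.23 in the 2-block fit. Without a block the Hormad1 interval was -0.87 to 0.52, and both intervals held the -0.48 of Syce2. Hormad2 read 229, 263, 162 and 199 in mutants, against 221, 201, 210 and 234 in wild type, with a difference of -0.04 (interval -0.38 to 0.31). The mutant values of Hormad2 ranged more widely, with a SD of 43.0 against 14.4 in wild type, and enclosed all wild-type values. Trip13, whose product strips both proteins from the axes, averaged 995 ± 104 in mutants and 921 ± 156 in wild type and was not called (log2 difference 0.12, and -0.09 in another probe set). How far these probe sets lay above background is unknown, since the table gives no detection calls.

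**Figure D2:**
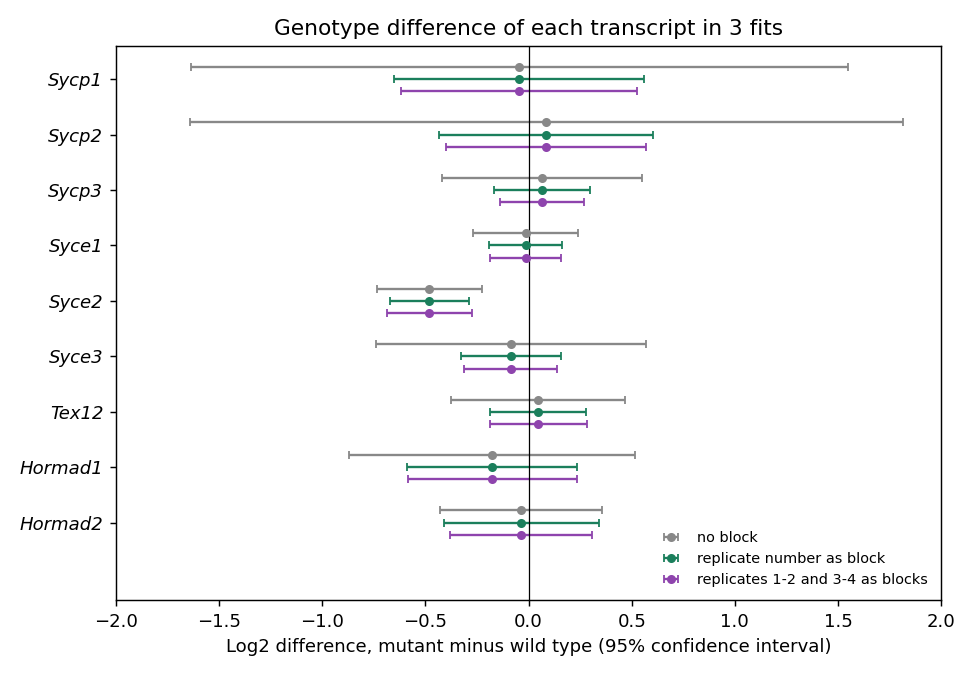
Log2 difference of each transcript, mutant minus wild type (horizontal axis), with 95% confidence intervals as bars, from limma without a block (grey), with the replicate number as a block (green) and with replicates 1-2 and 3-4 as blocks (purple). Only the intervals of Syce2 leave out 0, and those of Sycp1 and Sycp2 shrink most when replicates are blocked.

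No gene of the other meiotic lists was called between genotypes by its brightest kept probe set, the only one examined for calls here. Of 76 genes in 7 lists, which cover the chromosome axis and its remodelling, break formation, strand exchange, crossover, telomere attachment, sex chromosome silencing and the regulators of prophase, 60 had a kept probe set. None of the 60 was called in any of the 3 limma fits, in which 0.115%, 2.39% and 1.79% of all probe sets were called. At an unadjusted p under 0.05 there were 1, 2 and 4 of the 60, against 2009, 3872 and 3941 of the 27022 kept probe sets. Their median log2 difference was -0.01, against 0.07 over all kept probe sets and -0.04 over the 9 members. The gene that differed most in each list was Smc3, a cohesin subunit (-0.38), Spo11, whose product makes the meiotic breaks (-0.25), Tex15 of the strand exchange list (-0.33), Msh4, which stabilises crossover intermediates (-0.31), Terf1, a telomere binding protein (-0.19, and -0.29 to 0.31 in 2 other probe sets), Rnf8, a ubiquitin ligase of the silenced sex chromosomes (0.18), and Aurkc, a kinase of the meiotic divisions (0.39). Aurkc averaged 2154 ± 259 in mutants and 1634 ± 33.4 in wild type and was not called (limma, adjusted p = 0.351, 0.123 and 0.0716 in the unblocked, replicate-block and 2-block fits). The meiotic cohesin genes Rec8 and Stag3 had differences of -0.32 and 0.04, and Six6os1, a further central element gene, had one of 0.07 (-0.09 to 0.51 in 2 other probe sets). These genes and Trip13 are named for their roles and not by the rule on size. The ranking by size used the brightest probe sets, and some others differed more than the gene named for their list. These included probe sets of Cdc25c (-0.52), Atr (-0.43), Sun1 (-0.37) and Six6os1 (0.51), whose calls are not given here.

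Markers of spermatids, the next germ cell stage, moved with genotype. In bulk testis, fewer cells of a type and less RNA per cell cannot be told apart. The summed level of 14 spermatid markers was 13018 to 40791 in mutants and 92235 to 157410 in wild type, with a median log2 difference of -2.10, and called lower were 1 of the 14 in the unblocked fit, 11 with the replicate block and 9 in the 2-block fit (limma; 0.115%, 2.18% and 1.48% of all probe sets were called lower in these fits). The sum of 10 spermatocyte markers overlapped, at 80752 to 93581 in mutants and 74509 to 93964 in wild type, with a median of 0.03. In that list 1 gene was called lower with either block: Calr3, a testis chaperone of the calreticulin family, at 237 ± 99.0 in mutants and 1016 ± 310 in wild type (log2 difference -2.10, and -1.83 in another probe set). Markers of spermatogonia (9 kept), Sertoli cells (9), Leydig cells (5), peritubular cells (6) and macrophages (6) gave no call between genotypes in the 3 limma fits. Of 6 endothelial markers 1, Cldn5, was called higher in the 2-block fit, where 0.311% of all kept probe sets were called higher. The part of these markers in the Syce2 result was not tested.

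**Figure D3:**
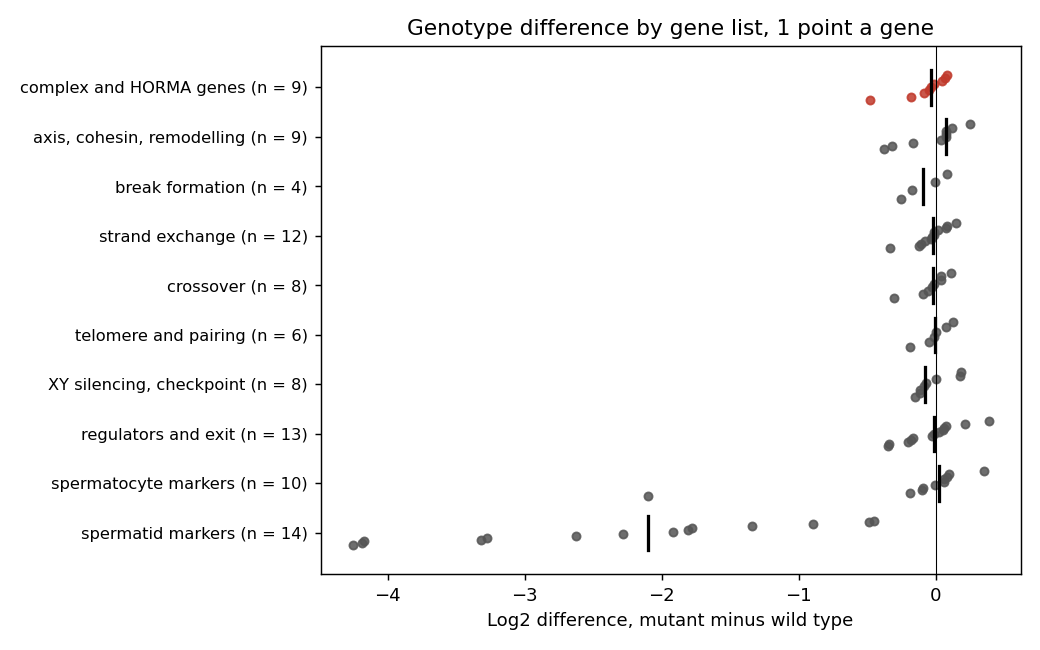
Log2 difference, mutant minus wild type (horizontal axis), for the 9 synaptonemal complex and HORMA genes (red), 7 lists of other meiotic genes and 2 marker lists, 1 point a gene and a black bar at each median. The meiotic lists centre near 0 while the spermatid markers centre at -2.10.

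Genes with profiles like those of Syce2 and Sycp3 over the 8 arrays were looked up among all kept probe sets of 1 gene. Likeness was the root mean square difference between profiles, each centred on its own mean log2 value, so that a smaller value means closer profiles. The 3 nearest genes to Syce2 were Braf, a kinase of the MAP kinase cascade (0.04), Odf2, an outer dense fibre and centrosome gene that is also on the spermatid marker list (0.06), and Psma6, a proteasome subunit (0.07). The Odf2 probe set nearest to Syce2 averaged 7886 in mutants and 10619 in wild type, and is not its brightest, which averaged 7901 in mutants and 11107 in wild type. The log2 difference of the brightest was -0.49, and those of its 4 other kept probe sets ran from -0.43 to 0.13. The member nearest to Syce2 was Syce1, at 0.25. For Sycp3 the 3 nearest genes were Chmp1b, a membrane remodelling gene (0.04), Scly, selenocysteine lyase (0.04), and Psmd14, a proteasome subunit (0.05), and the nearest member was Hormad1 (0.22). Sycp1 and Sycp2 were each other's nearest member at 0.37, and 0.78 or more from the other 7.

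Of the 9 transcripts 6 separated by replicate number in both genotypes. This split was found in these same arrays and the labels name no batch, so the calls describe it and lend it no support. It is the split with which the poly-A and hybridization controls, the actin ratio, the epididymis markers and the array medians moved. The mean of Sycp2 was 4972 ± 1271 in replicates 3 and 4, against 1051 ± 229 in replicates 1 and 2 (SD, n = 4 each, 2 mice of each genotype), 4.62-fold apart on the log2(value + 16) scale. That of Sycp1 was 3543 ± 1185 in replicates 3 and 4, against 868 ± 187 in replicates 1 and 2, 3.92-fold apart. Sycp3 and Hormad1 were also higher in replicates 3 and 4, by 0.56 and 0.71 log2 units. Syce3 and Tex12 went the other way and were lower in replicates 3 and 4, with log2 differences of -0.80 and -0.42. Syce1 (0.17), Syce2 (0.05) and Hormad2 (-0.17) were not called.

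With genotype as a term, 4 of the 9 were called higher in replicates 3 and 4 and 2 lower, where 40.9% of all kept probe sets were called (23.3% higher and 17.6% lower). These 6 did not overlap between the sets of replicates, 4 of them higher in replicates 3 and 4 and 2 lower, as 19.8% and 16.1% of all probe sets did (35.9% in either direction). With quantile normalization Syce1 was called higher too (0.36, adjusted p = 0.00332), and the calls over all probe sets were then 5110 higher and 6215 lower, against 6292 higher and 4748 lower as scaled by the authors. The order held in both genotypes: Sycp2 was higher in replicates 3 and 4 by 2.51 log2 units in mutants and 1.91 in wild type, Sycp1 by 2.30 and 1.64, and Syce3 differed by -0.95 and -0.65. A test of whether the genotype difference was unequal between the sets of replicates called none of the 9, and 0 of all kept probe sets (limma; 0 members and 1420 probe sets had an unadjusted p under 0.05). Of the 60 other meiotic genes 20 were called higher in replicates 3 and 4 and 16 lower. Tex15 and the meiotic cohesin gene Smc1b, singled out after their values were seen, were higher by 3.18 and 2.54 log2 units.

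**Figure D4:**
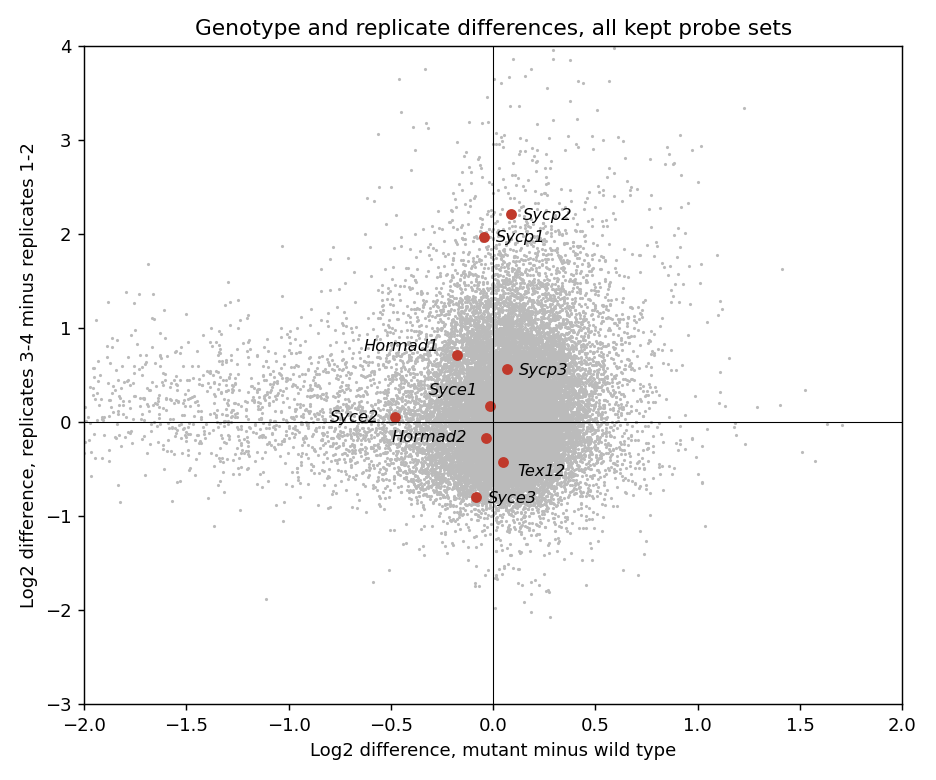
Log2 difference of mutant minus wild type (horizontal axis) against that of replicates 3-4 minus replicates 1-2 (vertical axis) for the kept probe sets (grey; 186 lie outside the axes), with the 9 transcripts in red. Sycp1 and Sycp2 lie near 2 on the vertical axis and near 0 on the horizontal one, and Syce2 lies at -0.48 on the horizontal axis and near 0 on the vertical one.

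The promoters of the 9 genes were compared for letters known from germ cell genes. In mouse, the palindrome CACGTG (E-box) is bound by MAX with MGA, and TTCCCGC by E2F6, in a complex that keeps germ cell genes silent elsewhere, and CNCCTCAG by STRA8 with MEIOSIN at the start of meiosis. All 9 genes matched RefSeq's promoter table (GRCm38.p6), and the 250 bases before the first listed start were searched on both strands. CACGTG was found in 4 of the 9 (Sycp1, Sycp3, Tex12 and Hormad1), against 6.0% of 32851 promoter windows of the same length. TTCCCGC was found in 3 of the 9 (Sycp3, Tex12 and Hormad1), all of which also held CACGTG, against 3.8%, and CNCCTCAG in Hormad2 alone, against 6.4%. Of 2 common promoter motifs, GGGCGG (GC box) was found in 4 of the 9 (Sycp2, Sycp3, Syce2 and Hormad2), against 32.7%, and CCAAT (bound by NF-Y) in none, against 33.8%. The 4 genes with CACGTG did not move as a group with replicate number: Sycp1, Sycp3 and Hormad1 were higher in replicates 3 and 4 and Tex12 was lower.

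Sequences are given for Sycp3, Hormad1 and Tex12, which hold both motifs, for Sycp1, which holds CACGTG, and for Syce2. Syce2, called lower with either block but not without one, holds a GC box but none of the 3 germ cell motifs in this window. Matches to CACGTG and TTCCCGC (either strand) are in capitals. The sequences run 5′ to 3′ on the gene's strand and end at the base before the start. They lie at chr10:88459337-88459586 (plus strand), chr3:95559427-95559676 (plus), chr9:50561269-50561518 (minus), chr3:102936101-102936350 (minus) and chr8:84871861-84872110 (plus). A match is a description of these letters and not a site, and Syce2 and Hormad1 each have 2 listed starts, of which the first is shown.
Sycp3: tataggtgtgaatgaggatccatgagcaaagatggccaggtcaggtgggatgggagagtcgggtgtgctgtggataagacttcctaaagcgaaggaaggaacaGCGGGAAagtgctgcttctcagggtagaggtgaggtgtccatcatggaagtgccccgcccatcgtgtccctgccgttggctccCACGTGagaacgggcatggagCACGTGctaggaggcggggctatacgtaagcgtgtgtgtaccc
Hormad1: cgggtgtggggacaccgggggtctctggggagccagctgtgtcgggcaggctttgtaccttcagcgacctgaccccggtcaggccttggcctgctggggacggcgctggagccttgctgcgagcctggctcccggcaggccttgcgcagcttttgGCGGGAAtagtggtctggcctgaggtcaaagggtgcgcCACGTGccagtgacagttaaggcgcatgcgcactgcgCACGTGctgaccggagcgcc
Tex12: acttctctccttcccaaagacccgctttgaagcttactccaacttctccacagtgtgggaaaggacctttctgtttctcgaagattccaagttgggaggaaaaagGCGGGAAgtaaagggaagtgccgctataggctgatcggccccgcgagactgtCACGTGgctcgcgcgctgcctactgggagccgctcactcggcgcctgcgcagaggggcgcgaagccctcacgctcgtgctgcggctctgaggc
Sycp1: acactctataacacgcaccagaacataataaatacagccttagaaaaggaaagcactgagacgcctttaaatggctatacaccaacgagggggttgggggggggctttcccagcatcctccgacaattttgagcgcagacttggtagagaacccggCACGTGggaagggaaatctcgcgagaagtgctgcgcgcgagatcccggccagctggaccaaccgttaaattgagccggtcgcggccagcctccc
Syce2: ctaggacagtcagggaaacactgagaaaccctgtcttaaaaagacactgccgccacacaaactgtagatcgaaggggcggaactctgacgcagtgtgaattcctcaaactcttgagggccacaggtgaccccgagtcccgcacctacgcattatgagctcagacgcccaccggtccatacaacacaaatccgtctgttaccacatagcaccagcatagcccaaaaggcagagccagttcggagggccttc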

How the data were processed

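RNA of whole testis, extracted with Trizol and columns, was turned into biotin-labelled cRNA for the arrays, per the labels' protocols. The authors deposited linear intensity values, and the submitters' processing notes name GCOS with no version or setting. Every array of that table has a mean of 500.0 once the top and bottom 2% of its probe sets are left out. Of 45101 probe sets, 64 controls were kept out of the tests, and of the rest 34945 carried 1 gene symbol, 932 several and 9160 none. Older symbols were replaced by way of their Entrez identifiers.

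Tests used log2(value + 16), which understates the fold change of dim genes. Probe sets with a mean over the 8 arrays above the 40th percentile (67.1) were kept. Genotypes were compared with limma 3.58.1 in R 4.3.3 (lmFit, eBayes with an intensity trend, two-sided, Benjamini-Hochberg over the 27022 kept probe sets). All adjusted p-values come from limma. For a listed gene, the brightest of its probe sets was used. The fits were tested on simulated data. The named genes are the 9 members, the gene of each meiotic list that differed most, and the 3 nearest genes to Sycp3 and Syce2. No meiotic list gene was called by its brightest probe set. Calr3 and Cldn5, from the marker lists, were named after their values were seen, as were Cdc25c, Atr and Sun1 for their other probe sets. The members, lists, blocks and tests were chosen with earlier results of these data known.

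The labels number the mice 1 to 4 in each genotype. After subtracting each genotype's mean, same-numbered mice correlated (r of 0.519, 0.618, 0.606 and 0.595 in the 4 pairs, over all kept probe sets), and this was taken as pairing, from the data and not the labels. The number itself was not singled out: mutants 1, 2, 3 and 4 were closest to wild-type mice 1, 1, 4 and 3, always within the same set of replicates (1 and 2, or 3 and 4). The replicate-block results rest on this. Alternatives were quantile normalization, median centring, pseudocounts of 1 and 64, no filter and one at the 60th percentile, no trend, robust eBayes, 1 probe set a gene, and leaving out mice. Figures were drawn with matplotlib 3.10.9.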

Additional observations from a re-analysis of the deposited data

How the results depend on the processing

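The log2 difference of Syce2 ran from -0.54 to -0.41 over 26 alternatives, and was called in 4 of them (limma adjusted p from 0.0269 to 0.516 over the 26). Where mice were left out, its negative sign was fixed by the lack of overlap between genotypes. Blocks with all mice, filters and variance settings left the difference unchanged. No member changed sign under quantile normalization, median centring or other pseudocounts. Filters, variance settings and 1 probe set a gene leave a member's log2 difference unchanged, so they could not turn a sign. Members called numbered 0 without a block and 1, Syce2, with the replicate block that uses the pairing, in the 2-block fit, with the replicate block without number 4, and in the 2-block fit without mutant replicate 1. Probe sets called numbered 31 without a block, 646 with the replicate block, 485 in the 2-block fit and 58 with a pseudocount of 64. They ranged from 0 (without mutant replicate 3 or 4, or any of wild-type replicates 1 to 3) to 119 (without mutant replicate 1) when 1 mouse was left out of the unblocked fit. With the replicate block they were 540, 4, 14 and 967 without number 1, 2, 3 and 4. Settings chosen after seeing the data gave 0 within replicates 1 and 2 (2894 at an unadjusted p under 0.05), 23 within replicates 3 and 4, and 701 in the 2-block fit without mutant replicate 1.

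The other 8 members were called in none of the alternatives, and their signs turned when mice were left out. Leaving out 1 mouse gave log2 differences from -0.53 to 0.45 for Sycp1, -0.37 to 0.59 for Sycp2, -0.068 to 0.21 for Sycp3, -0.072 to 0.044 for Syce1, -0.28 to 0.074 for Syce3, -0.081 to 0.15 for Tex12, -0.32 to 0.057 for Hormad1 and -0.14 to 0.078 for Hormad2. With the replicate block, signs turned for Sycp1 without number 1 (0.18) and number 4 (0.12), for Syce1 without number 2 (0.049), for Hormad2 without number 4 (0.025), and without number 3 for Sycp2 (-0.19), Sycp3 (-0.0085), Syce3 (0.0081) and Hormad2 (0.065). They also turned within replicates 1 and 2 for Sycp2 (-0.22), Syce3 (0.063) and Hormad2 (0.21), and within replicates 3 and 4 for Sycp1 (0.28), Syce1 (0.10) and Tex12 (-8.87e-05). In the 2-block fit without mutant replicate 1 they turned for Sycp1 (0.15), Syce1 (0.021) and Tex12 (-0.022). The cause of these changes was not tested beyond the loss of mice. The arrays carry no detection calls, so what signal over background limits is unknown.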
